A study of Drosophila melanogaster with 3 samples.

Results

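The Rab GTPase genes of Drosophila melanogaster were examined for binding of Hr4 at puparium formation. Hr4 belongs to the nuclear receptors, has no known ligand and acts in the cascade of genes set off by ecdysone, the steroid hormone of moulting and metamorphosis. Members were taken by the form of the symbol, as protein-coding genes of the chromosome arms 2L, 2R, 3L, 3R, 4 and X. Their names are Rab, then a number or X and a number, with at most a short suffix of letters. This gave 33 genes of 13945. Another 3 symbols with the same start, Rab3-GEF, Rab3GAP1 and Rab3-GAP, name regulators of Rab3 and not GTPases, and they were counted with the regulators.

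ChIP-seq, which sequences the DNA that comes down with a protein, was done on white prepupae of the strain Hr4-GFP, as whole animals with males and females pooled. The line stably expresses Hr4 with GFP at its C-terminus, and the precipitation used an antibody against GFP, per the description of the samples, whereas their antibody field reads Hr4. The age is labelled 48 day, which is not an age of prepupae. There were 3 biological replicates in 1 group, with no other genotype or treatment, so no conditions were compared, and whole animals do not tell in which tissue a site was bound. The sources used here give neither the copy number of the tagged gene nor the read depth, and no control library was analysed here.

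Rab proteins are small GTPases that switch between a GDP-bound form, held soluble in the cytosol, and a GTP-bound form on a membrane, where they recruit motors, tethers and other effectors. Each marks a membrane compartment, so the family as a whole maps the routes of secretion, endocytosis, recycling and delivery to the lysosome. Around this stage, in part before it, ecdysone sets off glue secretion from the salivary glands and remodelling of the fat body and other larval tissues, all of which depend on membrane traffic.

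A gene was called bound when the summit of a reproducible peak, the point of highest signal that the authors gave, lay within 1 kb of any of its transcription start sites (dm6, Ensembl annotation). On this rule 11 of 33 Rab genes were bound, 33.3% (95% Wilson interval 19.8 to 50.4, for counting error only), beside 22.7% of all protein-coding genes. The interval takes in the share over all genes. No test was made, because members are genes and not replicates. Bound genes were Rab1, Rab5, Rab8, Rab9, Rab9Fb, Rab11, Rab14, Rab26, Rab30, Rab39 and Rab40, and 22 were not bound.

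The bound genes carried 16 summits in 15 peak intervals, and the sequences under 7 of these summits are shown here. They were read from the Release 6 genome (dm6) on the gene's own strand, for 50 bp to each side of the summit, with bases annotated as UTR cut off. Rab5 and Rab14 had the strongest summits and Rab9Fb the next. Rab11 shared the lowest GC content and Rab1 had the highest. Rab8 and Rab30 had the summits with a match to any of 6 motifs searched, and capitals mark those matches.
Rab5, chr2L:2363695-2363795, - strand: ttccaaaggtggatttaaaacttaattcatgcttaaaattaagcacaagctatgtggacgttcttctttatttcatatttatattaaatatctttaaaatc
Rab14, chr2L:14355667-14355767, + strand: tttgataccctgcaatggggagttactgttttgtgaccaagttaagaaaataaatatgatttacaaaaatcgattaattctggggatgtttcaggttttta
Rab9Fb, chrX:10953407-10953507, - strand: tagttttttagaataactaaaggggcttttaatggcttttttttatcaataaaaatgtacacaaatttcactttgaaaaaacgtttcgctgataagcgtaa
Rab11, chr3R:21111187-21111287, + strand: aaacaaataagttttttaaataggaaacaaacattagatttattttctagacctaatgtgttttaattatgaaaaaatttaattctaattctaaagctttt
Rab1, chr3R:21269061-21269152, - strand: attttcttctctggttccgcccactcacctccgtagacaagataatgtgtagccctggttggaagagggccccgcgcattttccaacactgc
Rab8, chr3L:19871079-19871131, - strand: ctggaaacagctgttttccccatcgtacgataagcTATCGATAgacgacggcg
Rab30, chr2L:7032607-7032692, - strand: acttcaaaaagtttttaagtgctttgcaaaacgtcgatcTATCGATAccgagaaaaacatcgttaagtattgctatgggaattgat

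The 6 motifs were searched as exact matches on both strands in the 101 bp around each of the 16 summits, UTR bases included. TATCGATA, the DNA replication-related element (DRE), a core promoter element that reads the same on both strands, was found under 2 of 16 summits. It was in 0.668% of all 8687 reproducible summits on the arms and in 4.47% of 19607 windows of the same length around protein-coding start sites. Of the 8687 summits, 3231 lie within 1 kb of a protein-coding start site, as all 16 do by the rule. No motif share over those 3231 is given here. Both matches lay in promoters shared with a neighbour on the other strand. AGGTCA, the core to which many nuclear receptors bind, was under 0 of 16 summits, which allows a share of up to 18.8%, and under 1.80% of all reproducible summits and 1.62% of start site windows. Its extended form AAGGTCA, which overlaps it, was under 0 of 16 summits, beside 0.679% of all summits and 0.566% of start site windows. GGTCACACT, the core of Motif 1, was under none (0.265% of all summits, 3.65% of start site windows). CACGTG, the E-box, which also reads the same on both strands, was under none (0.553% and 1.82%), and the element GAGAGA, bound by Trithorax-like, was under none (3.59% and 4.06%). With windows of 25 bp to each side of the summit AGGTCA was under 0 of 16 summits, beside 0.829% of all, and with 100 bp to each side under 0 of 16, beside 3.98%. GC content of the same windows ran from 17.8% to 53.5% with a median of 28.7%, beside a median of 30.69% for all summits. The lowest value was that of the Rab11 summit and of the weaker Rab14 summit.

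**Figure D1:**
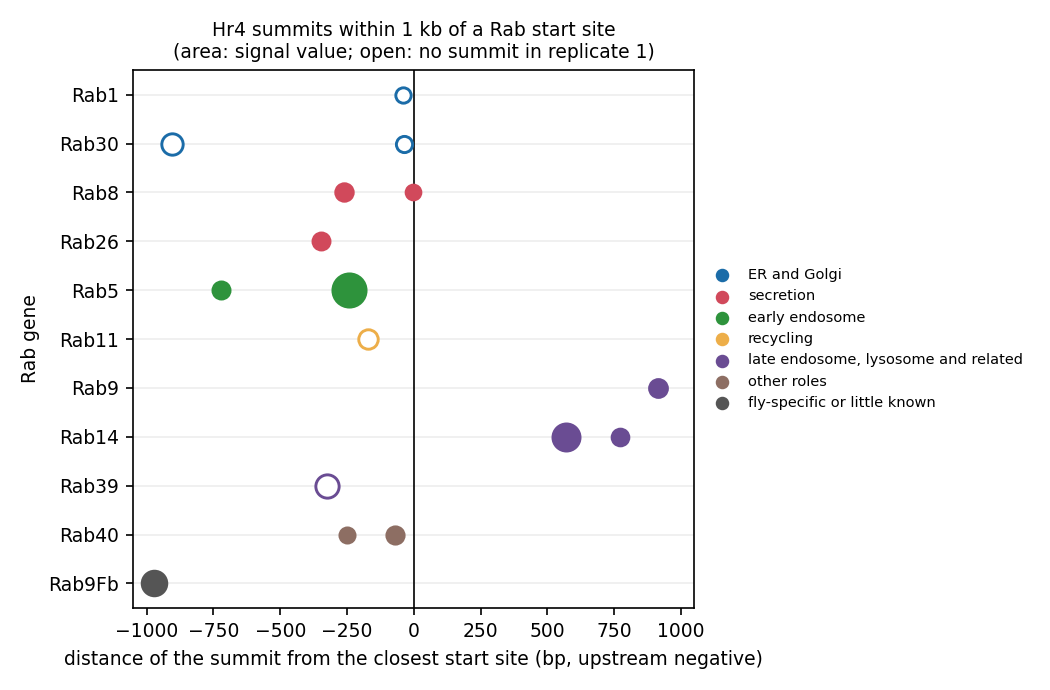
Distance of each of the 16 reproducible Hr4 summits from the closest start site of its Rab gene (bp, upstream negative), by gene and coloured by trafficking step. Point area grows with the authors' signal value, and open points have no summit within 250 bp in replicate 1. 13 of 16 summits lie upstream of that start site of the Rab gene, and those of Rab9 and Rab14 lie downstream. No share over all summits is given for this count.

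Of the 6 genes of the endoplasmic reticulum and Golgi, Rab1 and Rab30 were bound. Rab1, which drives traffic from the endoplasmic reticulum to the Golgi, lies on 3R from 21266029 to 21269060 on the - strand. Its summit at 21269102 was 42 bp upstream of the start site and weak, with signal value 102.7 and rank 7570 of 8693. It ranked 6604 of 30000 entries in replicate 2 and 9181 in replicate 3, and replicate 1 had no summit nearer than 5767 bp. The Rab1 promoter was therefore held by 2 of 3 replicates.

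Rab30, a Rab of the Golgi (2L, 7030493 to 7032606, - strand), had 2 summits. The stronger, with signal value 255.6 and rank 2784, lay 906 bp upstream at 7033512, in an intron of the neighbour Caper, which encodes a splicing factor. It ranked 2462 in replicate 2 and 2109 in replicate 3. The weaker, at 7032642, lay 36 bp upstream of Rab30 and 79 bp upstream of Caper, between their divergent start sites, and held the DRE match shown above. Its signal value was 121.1 and its rank 6443, with ranks of 6385 and 6770 in replicates 2 and 3. Neither was found in replicate 1, whose nearest summits lay 4624 bp and 5494 bp away.

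The other 4 genes of this step were not bound. Rab19, whose product binds Golgi coiled-coil tethers in flies, had its nearest summit 2742 bp away, and that summit lay 72 bp from a start site of Arl5, a small GTPase gene of the Arf family. Rab6, which acts in traffic within and out of the Golgi, had its nearest 11069 bp away. For Rab2, which acts at the Golgi and in delivery to lysosomes, it was 15166 bp, and for Rab18, a Rab of the endoplasmic reticulum and lipid droplets, 17881 bp.

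Of the 5 genes of secretion, Rab8 and Rab26 were bound, each inside the gene at a start site of some of its transcripts. Rab8, which acts in polarised exocytosis (3L, 19867488 to 19871078, - strand), had a summit at 19869819, in an intron of the longer transcripts and 261 bp upstream of the start site of transcript FBtr0308832. Its signal value was 151.1 and its rank 5130, and it ranked 9039, 5858 and 4557 in replicates 1, 2 and 3. A summit at 19871081 lay 3 bp upstream of the other start site of Rab8 and 58 bp upstream of that of Usp32, a ubiquitin-specific protease gene on the other strand. It was near the lower end of the reproducible list, with signal value 90.79 and rank 8430, where the lowest value of the list was 87.99. It ranked 10209, 12713 and 9346 in the replicates.

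Rab26, a Rab of secretory and synaptic vesicles (3L, 21318774 to 21335027, + strand), is the longest of the 33 genes at 16254 bp. Its summit at 21322033 lay 348 bp upstream of the start site of FBtr0301529 and FBtr0331795, and 3259 bp into the transcripts that start at the 5′ end of the gene. The signal value was 139.9 and the rank 5562, with ranks of 4021, 9352 and 5643 in replicates 1, 2 and 3. Rab26 was thus found in all 3 replicates, and it was not bound when the 5′ end of the gene alone was used as start site.

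Rab3, Rab10 and Rab27 were not bound. Rab3, which acts in the release of synaptic vesicles, had a strong summit 2009 bp away (signal value 656.3, rank 582), which lay 123 bp from a start site of CG7220. Rab10, which acts in exocytosis and in secretion of basement membrane, had its nearest reproducible summit 3415 bp away, and Rab27, a Rab of secretory granules, 10653 bp.

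Rab5 had the strongest summit of the family. Rab5, required for fusion of early endosomes (2L, 2359142 to 2365273, - strand), has 6 annotated start sites, the most of any Rab gene. The summit at 2363745 had signal value 699.4 and ranked 499 of 8693, and it ranked 915, 335 and 524 of 30000 in replicates 1, 2 and 3, with signal values of 154.4, 310.8 and 231.2 on the scale of each list. It lay 241 bp upstream of the start site of FBtr0077797 and 1528 bp into the longest transcript, FBtr0077793, and no other protein-coding gene had a start site within 1 kb of it. A weaker summit at 2365993 (signal value 141.7, rank 5487) lay 720 bp upstream of the 5′ end of Rab5, in an intron of Axud1, where it was 399 bp from an Axud1 start site. It ranked 5057, 6326 and 5531 in the replicates. Rab21, the other Rab of early endosomes, had its nearest summit 5794 bp away.

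Of the 3 genes of recycling, Rab11 was bound. Rab11, the Rab of recycling endosomes (3R, 21111408 to 21116146, + strand), had a promoter summit 171 bp upstream of its single start site at 21111237, with signal value 201.3 and rank 3724. It ranked 3380 in replicate 2 and 5739 in replicate 3, and the nearest summit of replicate 1 was 1421 bp away. Rab11 held 2 more reproducible summits within the gene, both over 1 kb from the start site. Rab4, which acts in rapid recycling, had its nearest summit 4834 bp away, a strong one (signal value 1108, rank 159) that lay 104 bp from a start site of POSH, a scaffold protein gene of JNK signalling. Rab35, which acts in recycling and on actin, had its nearest 13229 bp away.

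Rab9, Rab14 and Rab39 were bound of the 5 genes of late endosomes, lysosomes and related organelles. Rab14, a Rab of endosomes and phagosomes (2L, 14355145 to 14358764, + strand), had the summit that came after Rab5's in strength, at 14355717 with signal value 446.4 and rank 1173. It lay in an intron 572 bp downstream of the start site of FBtr0080626, and it ranked 1104, 1356 and 1024 in replicates 1, 2 and 3. A summit at 14355919 (signal value 133.3, rank 5844) shared its peak interval. In replicate 1 the entry nearest to it was the one that also matched the stronger summit, and it ranked 14690 and 16868 in replicates 2 and 3.

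Rab39, a Rab of lysosomal traffic (X, 7734923 to 7736756, + strand), had a summit at 7734597 with signal value 315.0 and rank 2049. It lay 326 bp upstream of Rab39 and 54 bp from the start site of its neighbour Pdp on the other strand, which is the closer one. The summit ranked 2917 and 1985 in replicates 2 and 3, and the nearest summit of replicate 1 was 9415 bp away. Replicate 1 listed fewer entries on X in general, 3262 of 30000 beside 5753 in replicate 2 and 6069 in replicate 3, and the part of this in the missing Rab39 summit was not tested.

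Rab9, which returns proteins from late endosomes to the Golgi (2L, 19432574 to 19435841, + strand), had an intronic summit 913 bp downstream of its start site, at 19433487. Its signal value was 160.3 and its rank 4821, and its ranks of 5703, 5233 and 5276 in replicates 1, 2 and 3 were close to each other. Rab7, the main Rab of late endosomes and lysosomes, was not bound and had its nearest summit 13012 bp away. Rab32, which acts in lysosome-related organelles such as eye pigment granules, was not bound, although 2 reproducible summits lay within the gene, the nearest 1623 bp from a start site.

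Of the genes with other roles, Rab40 was bound and Rab23 was not. Rab40, whose product carries a SOCS box found in substrate adaptors of ubiquitin ligases (X, 12459796 to 12463112, - strand), had a summit upstream of each of its 2 start sites. The summit at 12463184, 72 bp upstream of the 5′ one, had signal value 145.8 and rank 5338, and it ranked 3999, 8658 and 5441 in replicates 1, 2 and 3. The summit at 12462411, 250 bp upstream of the start site of FBtr0339841, had signal value 98.35 and rank 7865, and it ranked 14960, 10202 and 6060. Rab23, which acts in planar cell polarity in flies, was the unbound gene nearest to the limit. Its closest summit, at 5686541 with signal value 199.9 and rank 3753, lay 1107 bp upstream of its start site and 686 bp from a start site of plx, a gene for a GTPase-activating protein of the TBC type. Another 2 reproducible summits lay within Rab23, further from its start site. The bound gene nearest to the limit was Rab9Fb at 971 bp, followed by Rab9 at 913 bp.

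Of the 10 fly-specific or little known members 1 was bound, Rab9Fb, for which no role is given here. Its summit at 10953457 on X ranked 1685 (signal value 358.0), and it ranked 2250, 1474 and 1650 in replicates 1, 2 and 3. Rab9Fb (10951609 to 10952486, - strand) lies inside the gene Myo10A, which encodes an unconventional myosin and runs on the other strand. The summit was 971 bp from Rab9Fb, 675 bp from a Myo10A start site and 2427 bp from Rab9Fa, which was not bound. The genes Rab9D, Rab9Db, Rab9E and Rab9Fa were 96.0% to 99.0% identical to each other over the gene, and Rab9Fb was 78.4% to 81.0% identical to them. The sources used here do not say how reads that match several copies were treated, so the absence of summits in these 4 genes is uncertain. Among the others the nearest summits lay 1442 bp from Rab9D, 1689 bp from RabX4, 2412 bp from Rab9Db, 6440 bp from RabX6, 7095 bp from RabX1, 13246 bp from RabX5, 29593 bp from RabX2 and 32752 bp from Rab9E. The genes with an assigned step had 10 of 23 bound (43.5%, beside 22.7% of all protein-coding genes). This share leaves out the group with 1 of 10 bound, which holds these 4 near-identical genes. Over all 33 members the share was 33.3%, with an interval that takes in the share over all genes. Each of the 7 groups held at least 1 bound gene. These groups are too small to set one step against another, and no difference between steps was tested.

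**Figure D2:**
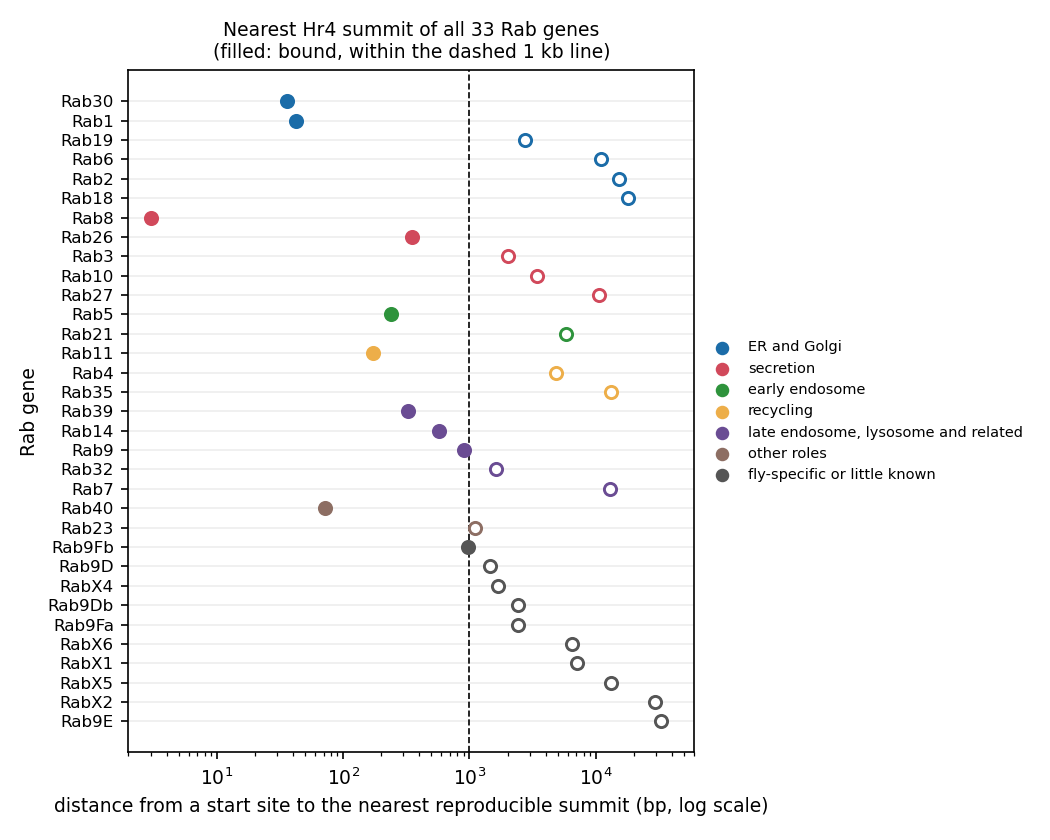
Distance in bp (log scale) from a start site to the nearest reproducible Hr4 summit for all 33 Rab genes, grouped and coloured by trafficking step. Filled points are the 11 bound genes, left of the dashed line at 1 kb, and open points the 22 unbound ones, which run from 1107 bp (Rab23) to 32752 bp (Rab9E).

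The 3 replicates did not hold these summits alike. Replicates 2 and 3 each had a summit within 250 bp of all 16 summits, and replicate 1 of 11, beside 99.1%, 99.5% and 91.7% of all reproducible summits in replicates 2, 3 and 1. The 5 that replicate 1 lacked were those of Rab1, Rab11 and Rab39 and both of Rab30. All 3 replicates held 11 of 16, beside 90.5% of all reproducible summits and 83.5% of the 3231 that lie within 1 kb of a protein-coding start site, of which replicate 1 held 85.5%. The 11 include both Rab14 summits, which matched the same entry of replicate 1. With summits matched within 100 bp the count was 9 of 16 (82.3% of all summits) and within 500 bp 11 (91.1%). Replicates 2 and 3 together held 16 (98.7%), replicates 1 and 3 held 11 (91.2%) and replicates 1 and 2 held 11 (90.9%). When each replicate was cut to its highest entries, as many as the reproducible list holds, 7 of 16 were in all 3, beside 68.6% of all summits. With only summits found in every replicate, 7 Rab genes were bound, Rab5, Rab8, Rab9, Rab9Fb, Rab14, Rab26 and Rab40, beside 18.5% of all genes (22.1% of all genes with support asked of replicates 2 and 3 alone, 18.8% with 1 and 3, 18.7% with 1 and 2), and no gene of the endoplasmic reticulum and Golgi or of recycling was left. The reproducible list was made from these same 3 replicates, so presence in a replicate is not independent of it.

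**Figure D3:**
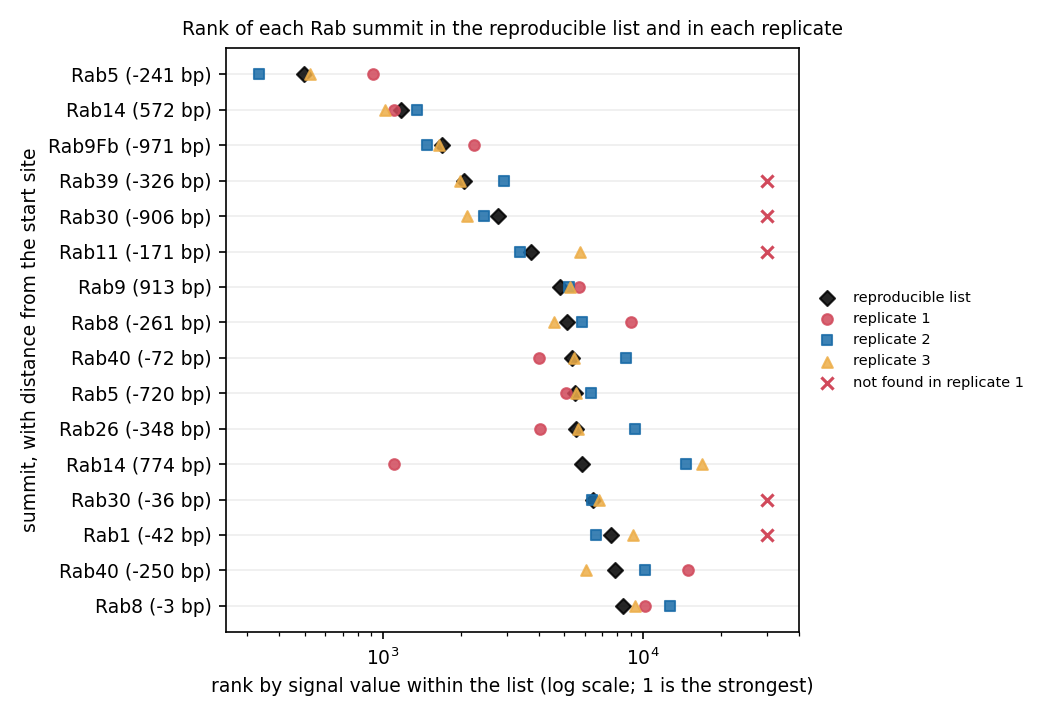
Rank by signal value (log scale, 1 is the strongest) of each of the 16 Rab summits in the reproducible list of 8693 peaks and in the list of 30000 entries of each replicate. Crosses mark the 5 summits for which replicate 1 had no summit within 250 bp. The Rab5 summit at 241 bp upstream ranks highest of the 16 in every list, from 335 in replicate 2 to 915 in replicate 1, and both Rab14 summits match 1 entry of replicate 1.

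In strength the bound Rab genes covered most of the list. The strongest summit of each had a median signal value of 201.3 (lowest 102.7, highest 699.4), beside a median of 249.0 over all 3164 bound genes. In rank the median was 3724 beside 2889. With the stronger 50% of the reproducible peaks alone, 6 Rab genes were bound (Rab5, Rab9Fb, Rab11, Rab14, Rab30 and Rab39) beside 14.9% of all genes.

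As many summits of the bound genes lay in promoters, of the Rab gene or of a neighbour, as lay elsewhere. The Rab39 summit counts as a promoter summit through Pdp, at 54 bp, and lies 326 bp from Rab39 itself. Promoters, taken as 250 bp to each side of any annotated start site, held 8 of 16 summits, beside 50.7% of all reproducible summits within 1 kb of a protein-coding start site, and the other 8 lay in introns of the Rab gene or of a neighbour. With 100 bp to each side promoters held 5 (17.7%) and with 500 bp 11 (75.6%). Upstream of the closest start site of the Rab gene itself lay 13 of 16, and no share over all summits is given here for this count. For 6 of the 11 bound genes another protein-coding gene also had a start site within 1 kb of the strongest summit: AP-2sigma for Rab1, Caper for Rab30, l(2)34Fd for Rab14, Pdp for Rab39, CG42258 for Rab40 and Myo10A for Rab9Fb. For 3 of them, Rab30, Rab39 and Rab9Fb, the neighbour's start site was the closer one, and a peak list does not say which gene a site serves. No share over all bound genes is given here for the 6 of 11, so it is not read as a trait of the Rab genes. Bound with no neighbour's start site closer were 8 of the 33 Rab genes, beside 17.2% of all protein-coding genes. The distances to the neighbours were 973 bp for AP-2sigma, which encodes a subunit of the clathrin adaptor AP-2, 632 bp for l(2)34Fd, 344 bp for CG42258 and 791 bp for Caper.

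The count of bound Rab genes grew with the distance allowed, as it did for all genes. Within 250 bp of a start site 6 were bound (13.4% of all genes), within 500 bp 8 (18.7%), within 2 kb 15 (29.3%) and within 5 kb 21 (44.9%). The genes added between 1 and 2 kb were Rab9D, Rab23, Rab32 and RabX4. When any base of the peak within 1 kb was enough, 12 were bound (24.0% of all genes), with Rab23 added, and with the 5′ end of the gene as the only start site 10 were (20.4%).

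**Figure D4:**
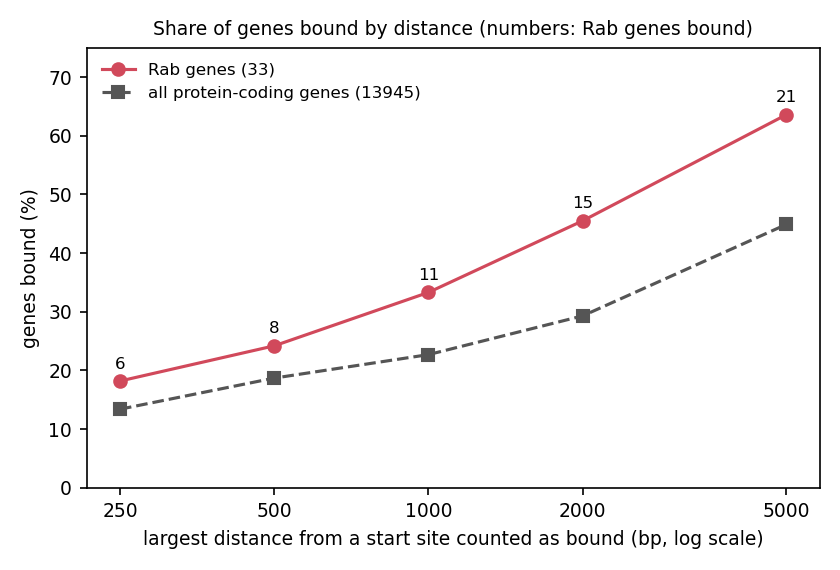
Share of genes bound (%) against the largest distance from a start site that counts as bound (bp, log scale), for the 33 Rab genes (circles) and for all 13945 protein-coding genes (squares). Numbers above the circles count the Rab genes bound, from 6 at 250 bp to 21 at 5 kb, and the Rab share is above that of all genes at each distance. The distances are nested and count the same genes again. At 1 kb the interval of the Rab share takes in that of all genes, and no difference was tested.

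Bound Rab genes had a higher median length than unbound ones. Median gene length was 3317 bp for the 11 bound and 1632 bp for the 22 unbound genes, beside 3933 bp for all bound and 2166 bp for all genes. The median number of start sites was 1 in bound Rab genes, in unbound ones and in all protein-coding genes. Of the 9 Rab genes with 2 or more start sites 5 were bound (55.6%), beside 40.8% of all such genes, and of the 24 with 1 start site 6 were bound, beside 16.1% of all such genes. A gene with more start sites has more sequence in which a summit counts. By arm, 4 of 5 Rab genes on 2L were bound, 0 of 5 on 2R, 2 of 5 on 3L, 2 of 5 on 3R and 3 of 13 on X, where 19.3% (2R) to 24.4% (X) of all genes on these arms were.

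Below the reproducible threshold, 6 of the 22 unbound genes had an entry of the pooled relaxed list, which mixes peaks with background, within 1 kb of a start site. With that whole list 17 Rab genes would be bound, beside 40.3% of all genes. The highest of these entries lay 131 bp upstream of Rab23 (signal value 76.87, rank 9878), followed by those 52 bp upstream of Rab35 (70.48, rank 10770) and 105 bp upstream of Rab10 (66.12, rank 11394). Rab32 (48.93), Rab21 (43.86) and Rab19 (38.04) had weaker ones. The other 16 unbound genes had none.

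RabX1 had high entries in 2 replicates and none in the pooled list. Replicate 1 had an entry 127 bp upstream of its start site at rank 1565 and replicate 3 one 143 bp upstream at rank 4409, replicate 2 had none within 1 kb, and the nearest entry of the pooled list was 7222 bp from the summit of replicate 1. Of the 8693 highest entries of replicate 1, 310 (3.57%) had no pooled entry within 250 bp. Rab7 had entries in replicates 2 and 3 alone, at ranks 12636 and 12420, and so had Rab18, at 9446 and 10310, with no pooled entry within 1 kb for either. Taken on their own highest entries, as many as the reproducible list holds, replicate 1 gave 8 bound Rab genes (21.3% of all genes), replicate 2 gave 10 (25.5%) and replicate 3 gave 11 (24.6%). RabX1 was among them in replicates 1 and 3, and Rab23 in replicate 1.

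Proteins that load, switch and use Rab GTPases were listed by function, and 14 of 37 of their genes were bound (37.8%, beside 22.7% of all genes). Without 2 symbols that were corrected after the values had been seen, pcs and RabGGTb, the count was 12 of 35. Both subunits of the transferase that attaches the lipid anchor were bound, RabGGTa (signal value 332.0, 166 bp upstream) and RabGGTb (269.2, 768 bp upstream), whereas Gdi, which extracts Rab proteins from membranes, and Rep, which presents them to the transferase, were not. Of exchange factors, which load GTP, 4 of 11 were bound, of GTPase-activating proteins 5 of 10 and of effectors 3 of 12. The strongest were Rbsn-5, Rabenosyn-5, an effector of Rab5, with signal value 789.0 and rank 392 at 112 bp upstream, spri, an exchange factor of Rab5, with 763.0 and rank 425 at 453 bp upstream, and Mon1, a subunit of the exchange factor of Rab7, with 511.5 and rank 923 at 68 bp upstream. All 3 were found in all 3 replicates. The partner of Mon1, Ccz1, was not bound, nor was Rab7 itself. Of the Rab3 regulators, Rab3GAP1 was bound (304.0, 122 bp upstream), and Rab3-GEF and Rab3-GAP were not.

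**Figure D5:**
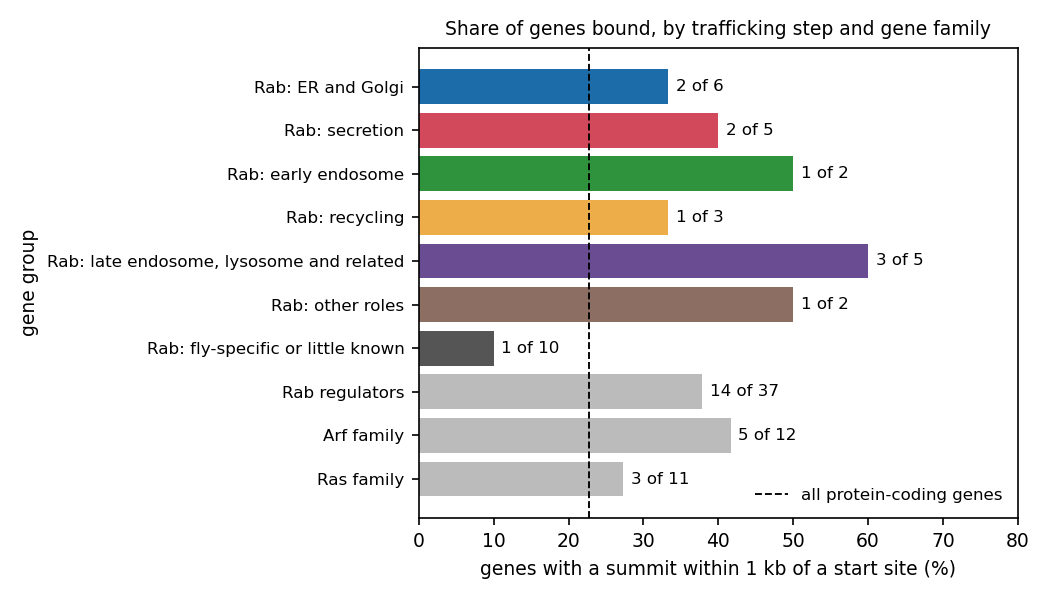
Share of genes with a reproducible Hr4 summit within 1 kb of a start site (%), for the 7 groups of Rab genes by trafficking step, the regulators of Rab proteins and the Arf and Ras families of small GTPases, with counts beside the bars. The dashed line is the 22.7% of all protein-coding genes. 1 of 10 fly-specific or little known Rab genes was bound, and every other group lies above the line, on counts as small as 1 of 2. In the group with 1 of 10, Rab9D, Rab9Db, Rab9E and Rab9Fa are near-identical to each other, so their absence of summits is uncertain. No difference between groups was tested.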

How the data were processed

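The authors deposited narrowPeak lists. Their accompanying text files describe a relaxed list, of peaks mixed with background, for each replicate against a control and for all 3 replicates together. Irreproducible discovery rate (IDR) analysis of these 4 gave the optimal list, called reproducible here. The unit used is the signal value of each peak as the authors deposited it, compared by rank within 1 list. The sources used here do not give the peak caller, the aligner or the threshold of IDR. Per the labels, chromatin was sonicated to 200 to 800 bp, and replicate numbers are the labels' own. The dm3 lists were not used.

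Of 8693 reproducible peaks in dm6, 8687 lie on the 6 arms. All 8693 are entries of the pooled list with the same signal value. Each relaxed list holds 30000 entries, so its length says nothing of depth. Start sites are those of all transcripts in Ensembl release 115. A replicate holds a summit where its own lies within 250 bp, with the rank of the nearest such entry. Functions were tested on simulated data (Python 3.11.15, numpy 2.4.6). Identity is from global alignments.

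Members, lists, motifs and settings were chosen with earlier results of these data known. Named genes are every member, neighbours within 1 kb of a member's strongest summit, and the 3 strongest bound genes of each list. Neighbours at weaker summits (Axud1, Usp32), genes closest to the summits around unbound members, other regulators, and RabX1 among the replicate entries were picked after their values were seen. 1 listed symbol did not match a gene, and 1 family of genes that was planned for comparison is not reported here. The labels name no batches.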

Additional observations from a re-analysis of the deposited data

How the results depend on the processing

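The count of 11 bound Rab genes moved by over 1.5 times within 250 bp of a start site (6), within 5 kb (21), among the stronger 50% of peaks (6), with the whole pooled relaxed list (17) and among summits found in all replicates (7). With the support of replicates asked and each replicate left out in turn it was 7 to 11, and 7 without replicate 2 or without replicate 3, since the summits of Rab1, Rab11, Rab30 and Rab39 then need replicate 1. The count of summits found in every replicate, 11 of 16, was 11 to 16 with a replicate left out and 7 with each replicate's highest entries alone. Promoter summits, 8 of 16, fell to 5 with promoters of 100 bp to each side. No AGGTCA was found under the 16 summits in any window tried. Bound regulators, 14 of 37, were 24 within 5 kb and 8 among the stronger 50% of peaks, and bound genes of the Arf and Ras families, 8 of 23, were 13, 3 and, with the pooled list, 14. The shares over all protein-coding genes moved too, to 44.9% within 5 kb, 14.9% among the stronger 50% of peaks and 40.3% with the pooled list. With the 3 regulators of Rab3 counted as members, 12 of 36 genes were bound, beside 22.7% of all genes. Rab5 was bound in all 15 planned settings that keep the 33 members and Rab1 in 9. Counting only genes with no closer start site of a neighbour, a setting added after the data had been seen, gave 8, beside 17.2% of all genes. No paired analysis was possible because there is 1 group. Read depth is unknown, so an unbound gene is one without a reproducible summit and not one shown to lack Hr4.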

Other observations

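The Arf and Ras families of small GTPases, listed among those most like the Rab genes, had 8 of 23 genes bound together (34.8%, beside 22.7% of all protein-coding genes), 5 of 12 in the Arf family and 3 of 11 in the Ras family. In the Arf family Arl1, a GTPase of the trans-Golgi, had the strongest summit, with signal value 868.8 and rank 307 at 135 bp upstream of a start site. Arl5 had 259.6 and Arl8, a GTPase of lysosomes, 138.4. In the Ras family Rheb, which activates TOR, had 265.9, Rap1 107.5 and Rap2l 91.08. Of these 6 genes, 5 had the summit in all 3 replicates, and Arl8 had it in 2. No difference between these families and the Rab genes was tested.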
